A study of Mus musculus with 11 samples.

Results

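The regions described here are 4 clusters of KRAB zinc finger genes of the mouse genome, on chromosomes 13, 4, 2 and 17, measured as sequencing depth of genomic DNA in mouse embryonic stem cells (mESC). Members were the bins whose midpoint lay inside fixed borders in the mm10 build. These were 256 bins of about 50 kb among the 52958 bins of each library. The chromosome 13 region held 120 bins (chr13:62005532-68003974), the chromosome 4 region 44 bins (chr4:145397885-147993379), the chromosome 2 region 56 bins (chr2:174799430-178014026) and the chromosome 17 region 36 bins (chr17:32000696-33800311).

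The study asked whether loss of TET or DNMT enzymes changes chromosome content, by low-coverage whole-genome sequencing of 11 libraries. Ctrl cells carried Cre/ERT2 and the Rosa26-LSL-H2b-Egfp reporter, and Tet iTKO cells carried both of these together with floxed (fl/fl) alleles of Tet1, Tet2 and Tet3. Cre/ERT2 was driven by the ubiquitin C promoter in all of these cells. Each genotype gave 1 library before treatment and 1 acute library, collected 4 days after 2.5 days in 1 µM tamoxifen. Each also gave 3 long-term libraries from monoclonal populations kept for 30 days. A single long-term library came from Dnmt TKO cells, a germline, non-inducible knockout of Dnmt1, Dnmt3a and Dnmt3b that was not made from the Ctrl line. All cells grew in 2i medium on feeder fibroblasts and were sorted as CD326+ and Thy1.2-. Tamoxifen-treated cells of the Ctrl and Tet iTKO lines were also sorted as GFP+, the reporter being expressed only after excision by Cre.

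KRAB zinc finger genes encode DNA-binding proteins with a KRAB domain followed by an array of C2H2 fingers, each finger a loop held by paired cysteines and histidines around a zinc ion. The fingers read DNA sequence, and the KRAB domain recruits TRIM28 and with it silencing chromatin. The genes are known for repressing transposable elements in embryonic stem cells. They multiply by tandem duplication, so that neighbouring genes share long stretches of nearly identical sequence and copy number can vary between mouse lines.

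In the RefSeq annotation the 4 regions held 177 protein-coding genes, of which 105 (59.3%) encoded at least 3 C2H2 fingers and 82 also matched the start of the KRAB A box. Elsewhere on the autosomes 505 of 20381 coding genes (2.48%) met the finger criterion, and 193 also had the KRAB match. The zinc finger genes numbered 47 of 77 coding genes on chromosome 13, 19 of 25 on chromosome 4, 26 of 30 on chromosome 2 and 13 of 45 on chromosome 17. The chromosome 17 borders therefore took in more genes of other families than of this one.

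How alike the genes are can be read from the coding window of 50 bases, the step in which low bins of the files count bases, with most exact copies in each region. The windows below are given 5′ to 3′ on the coding strand (GRCm38, the mm10 assembly), with the codons of the conserved linker, the short segment that joins neighbouring fingers, in capitals.

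Chromosome 13 (Gm31714, chr13:65397797-65397846, minus strand): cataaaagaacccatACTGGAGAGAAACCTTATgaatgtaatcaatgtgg
Chromosome 4 (Gm42346, chr4:145449834-145449883, plus strand): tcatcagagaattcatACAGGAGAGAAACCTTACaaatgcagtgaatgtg
Chromosome 2 (Gm14444, chr2:175018505-175018554, plus strand): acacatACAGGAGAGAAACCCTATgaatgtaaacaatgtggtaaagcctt
Chromosome 17 (Zfp955a, chr17:33241818-33241867, minus strand): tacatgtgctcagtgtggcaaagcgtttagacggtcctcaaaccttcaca

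The chromosome 13 window occurred 119 times on the 21 assembled chromosomes, on either strand, and all 119 copies lay inside the region. The chromosome 2 window had 112 copies in its region of 116 in the genome, and the chromosome 4 window 51 of 58. The chromosome 17 window, which does not hold the linker, had 4 copies, all in its region. A read that matches such a window exactly has many equally good places, so the depth of a bin counts reads assigned to it rather than reads that could come from nowhere else.

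The regions differed in how much of their sequence is of this kind. The multi-copy share of a bin is the percentage of its sampled 50-base windows that occur more than once in the genome, and its median over all autosomal bins was 5.43%. The median was 93.99% in the chromosome 2 region, 70.9% on chromosome 4, 18.4% on chromosome 13 and 8.66% on chromosome 17. Within chromosome 13, the bins from chr13:65504624 to 67004234 (30 bins, called the stretch below) had a median multi-copy share of 79.9%, against 12.7% in the other 90 bins. The stretch held 109 of the 119 copies of the chromosome 13 window. Its 16 coding genes included 12 zinc finger genes, 8 of them with the KRAB match, and 31 annotated pseudogenes lay among them.

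The 11 libraries held between about 11093400 and 16242100 reads, 1 read being taken as 50 bases, and a median autosomal bin held between 215.02 and 315.31 reads. Relative depth is the depth of a bin over the median autosomal bin of the same library, so 1 stands for an autosomal locus mapped as often as most others. Median relative depth of X was 0.560 to 0.592 in all libraries. That of Y was 0.0269 to 0.0381 in the 4 libraries before treatment and after acute treatment, called early below, and 0.457 to 0.558 in the 7 long-term libraries. The early and long-term cells of a genotype therefore differed in Y depth, and in every comparison between stages below, culture stage and cell line cannot be told apart. The counts of replicate libraries differed by no more than counting noise in all 6 replicate pairs, with a median squared difference of 0.996 to 1.03 times the Poisson value. None of the pairs was closer than the others in this measure. It cannot tell separate populations from repeat sequencing of the same population, and the libraries were kept as separate. The study's methods describe populations from 3 embryos for each genotype, but the labels tie no library to an embryo. Here p-values measure only the spread between these libraries, which was no more than counting noise, and not a spread between independent clones.

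In all 11 libraries the median depth was highest in the chromosome 4 region and lowest in the chromosome 2 region. The chromosome 4 region lay far above the rest, with a median relative depth between 2.64 in the pre-treatment Tet iTKO library and 3.05 in Dnmt TKO. Its 41 bins at 1.5 or more made up 93.2% of the region in every library, whereas 0.338 to 1.75% of autosomal bins outside the 4 regions reached that level. The chromosome 13 region had a median between 1.12 and 1.19, and the chromosome 17 region between 1.07 and 1.13. Of these, chromosome 13 had the higher median in all libraries but the third long-term Tet iTKO library (1.12 against 1.13). The chromosome 2 region alone was below 1, at 0.833 to 0.911, with 12 to 20 of its 56 bins under 0.75.

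Inside the chromosome 4 region, relative depth summed over the 44 bins was 140.9 in Dnmt TKO and between 116.2 and 123.2 across the 10 other libraries. The 3 long-term Ctrl libraries stood at 119.6, 120.4 and 119.4 and the 3 long-term Tet iTKO libraries at 119.004, 121.7 and 120.9, so these groups overlapped. The deepest bin was the same in all 11 libraries, chr4:147392461-147442537, with no annotated coding gene. It stood at 5.29 and 5.11 in the pre-treatment Ctrl and Tet iTKO libraries, at 5.26 and 5.44 after acute treatment, at 5.01, 5.40 and 5.11 in long-term Ctrl, at 5.33, 5.47 and 5.14 in long-term Tet iTKO and at 5.95 in Dnmt TKO. Its multi-copy share was only 29.0%, so the highest depth of the region did not fall in its most repeated sequence.

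Zfp600, Rex2 and Zfp534 are KRAB zinc finger genes of the chromosome 4 region. The depth of a gene was averaged over the bins that it overlaps, weighted by the length of each overlap. In the order long-term Ctrl, long-term Tet iTKO (mean ± SD, n = 3 each) and Dnmt TKO, Zfp600 stood at 3.56 ± 0.0947, 3.58 ± 0.0311 and 4.27. Rex2 stood at 2.50 ± 0.0264, 2.51 ± 0.0938 and 2.96 in that order, and Zfp534 at 2.36 ± 0.0509, 2.46 ± 0.161 and 2.50. For all 3 genes the libraries of the long-term Ctrl and Tet iTKO groups overlapped. The last 3 bins of the region, which hold Zfp933 and also Mfn2, Plod1 and other genes outside the family, had long-term Ctrl means of 1.08, 0.997 and 1.15.

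In the chromosome 2 region relative depth was lowest where the sequence was most repeated. The 27 bins with a multi-copy share of 99% or more had mean relative depths over the libraries between 0.594 and 0.861, with a median of 0.707. The bin most often lowest, in 5 of 11 libraries, was chr2:176505894-176548872, which overlaps Zfp967 and had a median of 0.592. The highest bin in all 11 libraries was chr2:177309523-177360283, at 1.45 to 1.63 and with a multi-copy share of 59.0%. Across the 56 bins the rank correlation of mean relative depth with multi-copy share was -0.83. It was 0.40 across the 120 bins of chromosome 13, 0.11 across the 44 of chromosome 4 and 0.082 across the 36 of chromosome 17. These are descriptions over neighbouring bins of the same libraries, which share depth and base composition.

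**Figure D1:**
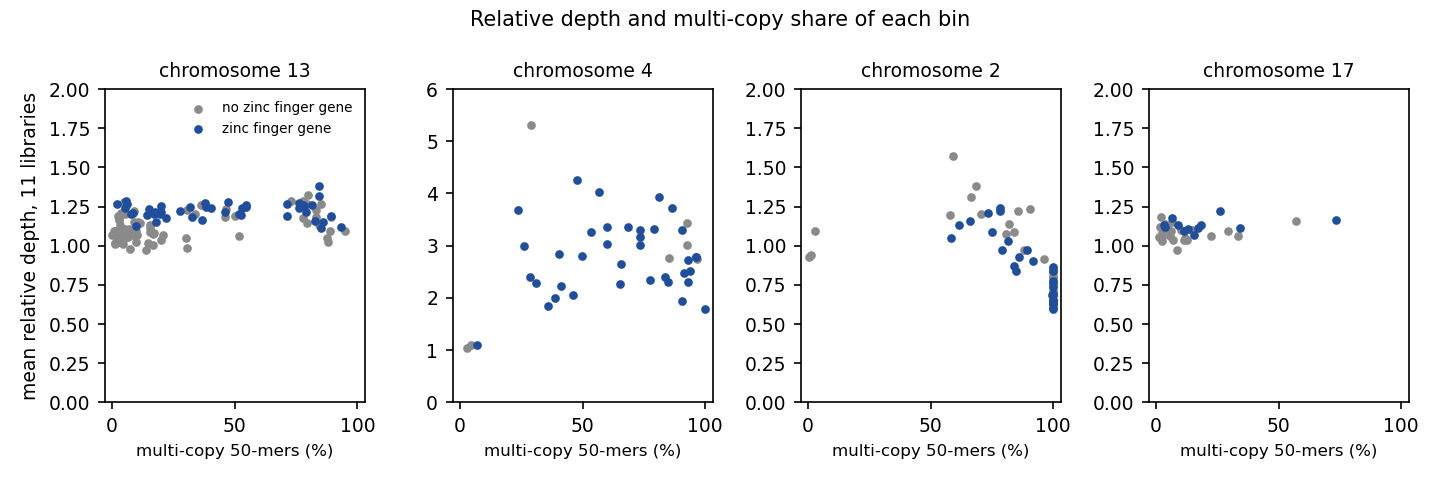
Each point is a bin, with its multi-copy share (percent of sampled 50-base windows found more than once in the genome) on the x axis and its mean relative depth over the 11 libraries on the y axis, whose range is wider for chromosome 4. Blue points overlap a zinc finger gene and grey points do not. Bins of chromosome 2 at or near 100% multi-copy share sit between 0.594 and 0.861, whereas most chromosome 4 bins lie above 1.5 at any share.

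The 3 long-term Tet iTKO libraries were compared with the 3 long-term Ctrl libraries, the only comparison with replicates on both sides. The cells were of separate lines, with Y depth of 0.463 to 0.470 in long-term Ctrl and 0.549 to 0.558 in long-term Tet iTKO. Loss of TET enzymes and differences between lines or clones therefore cannot be told apart in this comparison. Called bins had a limma adjusted p (Benjamini-Hochberg over all 47924 autosomal bins) under 0.05. Of the 256 member bins 9 were called lower in Tet iTKO and 0 higher, against 0.104% of all autosomal bins called lower and 0.0313% called higher. All 9 lay on chromosome 13 within the stretch, which was already known to differ when these regions were chosen. At an unadjusted limma p under 0.05 the members counted 33 bins (12.9%), of which 18 in the stretch, against 6.08% of all autosomal bins. The libraries are of bulk DNA, in which fewer copies in every cell and a loss of copies from part of the cells cannot be told apart.

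The 9 bins carried 5 annotated zinc finger genes: Gm53057, Gm17353 and 2410141K09Rik, which have the KRAB match, and Gm45965 and LOC115488129, which do not. The first finger of each that is followed directly by another is given as 84 coding bases from the first cysteine to the end of the linker (GRCm38), with the codons of the zinc-binding cysteines and histidines in capitals. That of Gm17353, a gene that spans the border of a called bin, lies in the next bin, which was not called.

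Gm53057 (chr13:65691309-65691392, minus strand): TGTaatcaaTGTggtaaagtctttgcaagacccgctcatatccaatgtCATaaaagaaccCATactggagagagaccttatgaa
Gm17353 (chr13:65906414-65906497, plus strand): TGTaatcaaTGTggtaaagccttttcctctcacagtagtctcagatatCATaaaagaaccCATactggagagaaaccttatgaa
Gm45965 (chr13:66163134-66163217, plus strand): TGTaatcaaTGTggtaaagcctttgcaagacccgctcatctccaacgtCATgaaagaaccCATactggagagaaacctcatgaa
LOC115488129 (chr13:66282301-66282384, minus strand): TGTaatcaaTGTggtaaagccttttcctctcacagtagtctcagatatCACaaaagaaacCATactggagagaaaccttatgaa
2410141K09Rik (chr13:66432111-66432194, minus strand): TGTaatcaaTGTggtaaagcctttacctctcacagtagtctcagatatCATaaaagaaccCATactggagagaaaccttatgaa

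Gm17353 and 2410141K09Rik shared 83 of the 84 bases (98.8%), and Gm17353 and LOC115488129 shared 82. Gm53057 and Gm45965 shared 78 (92.9%) and had 66 to 68 in common with the other 3, so that these units fell into 2 kinds. Of the coding 50-base windows of these 5 genes, between 45.2% (LOC115488129) and 77.1% (Gm45965) had a further exact copy within the chromosome 13 region.

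The bin of 2410141K09Rik (chr13:66404390-66454376) showed the largest difference. Its relative depth was 1.34, 1.27 and 1.28 in the long-term Ctrl libraries and 0.818, 0.891 and 0.941 in the long-term Tet iTKO libraries. The 4 early libraries stood between 1.15 and 1.20, so the long-term Tet iTKO libraries lay below all the others. The difference was -0.55 ± 0.073 on the log2 scale (SE; limma adjusted p = 3.97e-06).

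The bin of Gm45965 (chr13:66154455-66204441) stood at 1.25, 1.30 and 1.29 in long-term Ctrl and at 0.841, 0.888 and 0.895 in long-term Tet iTKO, a difference of -0.54 ± 0.071 (SE; limma adjusted p = 3.05e-06). Of the early libraries, Ctrl before treatment was at 1.09 and the other 3 were between 1.28 and 1.31. The bin of Gm53057 (chr13:65654585-65704571) stood at 1.16, 1.14 and 1.16 in long-term Ctrl and at 0.841, 0.885 and 0.865 in long-term Tet iTKO (difference -0.41 ± 0.071 SE, limma adjusted p = 0.0008). The bin of LOC115488129 (chr13:66254429-66304415) went from 1.19, 1.13 and 1.22 to 0.908, 0.858 and 0.856, and that of Gm17353 (chr13:65854533-65904519) from 1.15, 1.19 and 1.26 to 0.865, 0.938 and 0.906. In each of these 5 bins the 3 Tet iTKO libraries lay below the 3 Ctrl libraries.

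The other 4 called bins, starting at 65754559, 65804546, 66304416 and 66454377, overlapped no annotated coding gene. Their relative depths were 1.07 to 1.37 in long-term Ctrl and 0.772 to 0.985 in long-term Tet iTKO. Differences over all 9 called bins ranged from -0.55 to -0.40, with limma adjusted p-values up to 0.00167.

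The called bins were not isolated. From the first to the last of them, chr13:65654585-66504363, lay 17 adjoining bins (0.85 Mb), and all 17 were lower in long-term Tet iTKO, by -0.55 to -0.18 on the log2 scale. The 8 bins among them that were not called had limma adjusted p-values between 0.0517, in the bin of Gm10324, and 0.720. In all 17 the long-term Tet iTKO libraries lay below the long-term Ctrl libraries, an arrangement that 5.56% of all autosomal bins showed. In 16 of the 17 they also lay below all 7 other Ctrl and Tet iTKO libraries, which held for 0.952% of all autosomal bins. The ends of this run were set by the called bins, so these counts describe it and support nothing.

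Averaged over the run, the long-term Ctrl libraries had a relative depth of 1.20 ± 0.0180 and the long-term Tet iTKO libraries one of 0.926 ± 0.0117 (SD, n = 3 each), a ratio of 0.770. The individual means were 1.20, 1.18 and 1.22 in Ctrl and 0.931, 0.913 and 0.935 in Tet iTKO. Before treatment they were 1.17 in Ctrl and 1.22 in Tet iTKO, and after acute treatment 1.21 and 1.23. The early Tet iTKO libraries thus sat with all Ctrl libraries, and only the long-term Tet iTKO libraries stood lower.

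The bins next to the run differed by -0.10 before it and -0.22 after it, against -0.55 to -0.18 inside it. The bin just before the run, starting at 65604598, stood at 1.03, 1.26 and 1.11 in long-term Tet iTKO and 1.11, 1.23 and 1.29 in long-term Ctrl. The bin just after it, starting at 66504364 and overlapping Gm46427, stood at 1.15, 1.22 and 1.11 against 1.36, 1.49 and 1.22. The groups overlapped in both, in the second only just (1.2227 against 1.2215), and over the 13 bins of the stretch outside the run the difference ranged from -0.22 to 0.064, with a lowest limma adjusted p of 0.628. Averaged over these 13 bins the groups were apart, at 1.20, 1.23 and 1.21 in long-term Tet iTKO against 1.25, 1.27 and 1.26 in long-term Ctrl. In 3 of the 13 (23.1%) the Tet iTKO libraries all lay below the Ctrl libraries and in 0 all above, against 5.56% of all autosomal bins below. This smaller difference was not tested. The 13 bins resemble the run in sequence, with a median multi-copy share of 76.2% against 83.2% in the run and 53 copies of the chromosome 13 window against 56. The shares ranged from 71.3 to 95.1% in the run and from 2.94 to 84.3% outside it. Copies of the window lay in 12 of the 17 run bins and in 7 of the 13 others, with 15 in 1 of the latter.

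**Figure D2:**
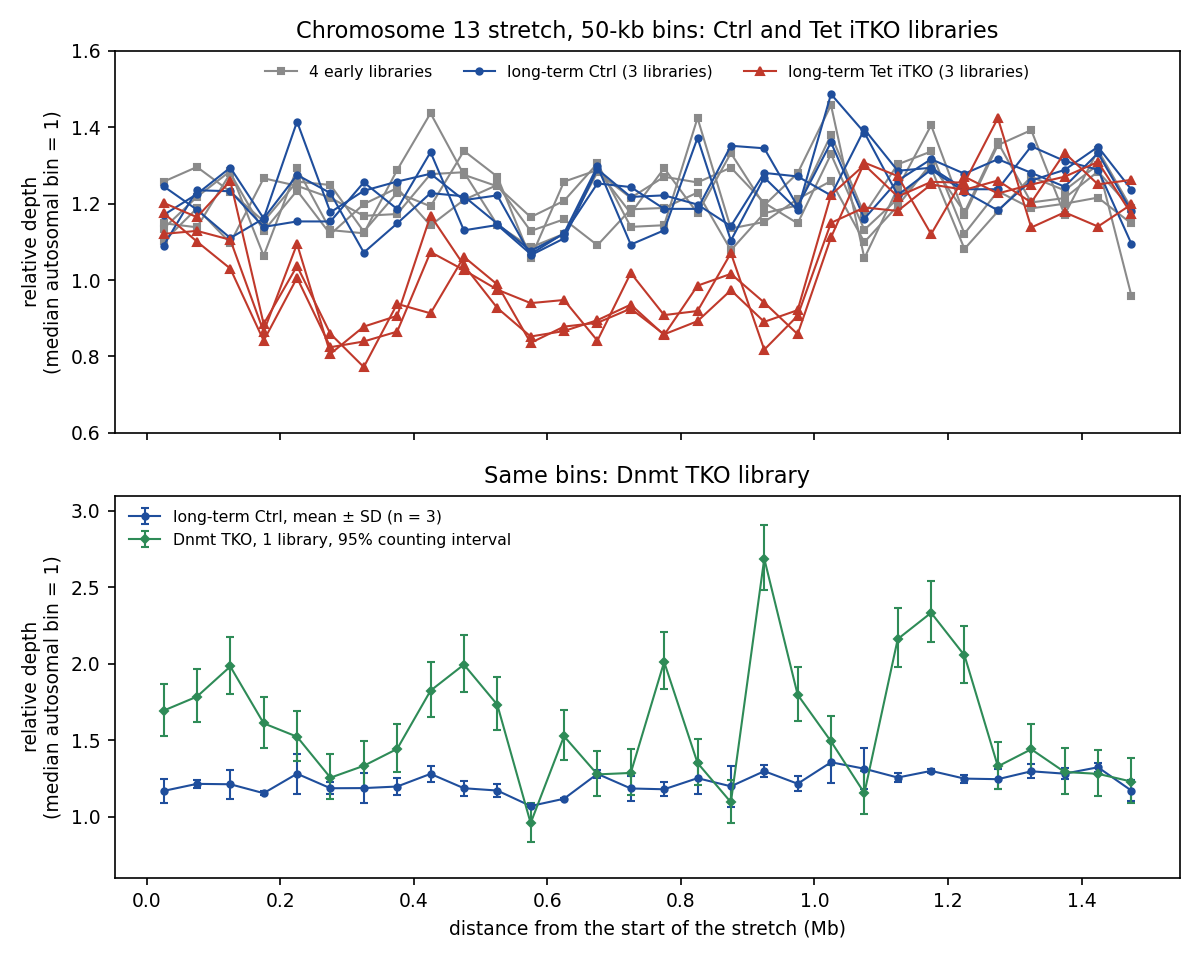
Relative depth (median autosomal bin = 1) of the 30 bins of the chromosome 13 stretch against distance from its start in Mb. Upper panel, one line per library, where the 3 long-term Tet iTKO lines lie below the 3 long-term Ctrl lines in all 17 bins of the run and overlap them in the bins next to it. Lower panel, the mean ± SD of long-term Ctrl (n = 3) and the Dnmt TKO library with its 95% counting interval, which rises to 2.69.

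Other KRAB zinc finger genes of the stretch lay outside the run. Between the long-term groups (Ctrl first, SD, n = 3 each), Zfp640 stood at 1.30 ± 0.0147 and 1.21 ± 0.0770, Gm10323 at 1.29 ± 0.0348 and 1.24 ± 0.0655, and Gm19428 at 1.18 ± 0.0511 and 1.16 ± 0.0348. None of their bins was called.

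Just beyond the stretch lie Zfp708, Rslcan18 and Rsl1, of which Rsl1 encodes a repressor of sex-limited gene expression in liver. Rsl1 had means of 1.23 ± 0.0936 in the long-term Ctrl libraries and 1.16 ± 0.0560 in long-term Tet iTKO (SD, n = 3 each). In the same order Rslcan18 had means of 1.18 ± 0.0288 and 1.24 ± 0.0734, and Zfp708 of 1.26 ± 0.0385 and 1.27 ± 0.142 (SD, n = 3 each). The groups overlapped for all 3 genes.

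As whole regions, the long-term libraries differed little. Mean log2 relative depth over the 120 bins of chromosome 13 averaged 0.16 ± 0.0036 for Tet iTKO and 0.22 ± 0.010 for Ctrl (SD, n = 3 each), which differed by -0.052 ± 0.0063 (SE; exact two-sided permutation p = 0.1, adjusted over the 4 regions 0.4). The 3 Tet iTKO libraries lay below the 3 Ctrl libraries, and with 3 against 3 this test cannot give less than 0.1. Over the 30 bins of the stretch the difference was -0.24 ± 0.0070 (SE), and over the other 90 bins the group means were 0.20 in Tet iTKO and 0.19 in Ctrl.

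The chromosome 4, 2 and 17 regions differed by 0.012 ± 0.010, 0.026 ± 0.020 and 0.014 ± 0.011 (SE; exact two-sided permutation p = 0.4, 0.3 and 0.3, each 0.4 after adjustment). Their libraries overlapped between the groups. The single bins of chromosome 4 spanned -0.11 to 0.14, the narrowest range of the 4 regions, with a lowest limma adjusted p of 0.840. On chromosome 2 they spanned -0.19 to 0.25 (lowest limma adjusted p = 0.382), and on chromosome 17 -0.18 to 0.21 (lowest limma adjusted p = 0.670).

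Bins of zinc finger genes elsewhere, and of other gene families, give the scale of these counts. Over all autosomal bins 0.104% were called lower in long-term Tet iTKO and 0.0313% higher. Among 790 autosomal bins outside the 4 regions that overlap a zinc finger gene, 1 was called lower (0.127%) and 0 higher, near that share. Of 568 bins with an olfactory receptor (Olfr) gene 0 were called in either direction. Of 327 bins with a vomeronasal receptor (Vmn) gene 2 were called lower (0.612%). Counts this small do not set these families apart from the autosomes. Within the 4 regions 5 of 126 bins with a zinc finger gene (3.97%) and 4 of 130 without (3.08%) were called.

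**Figure D3:**
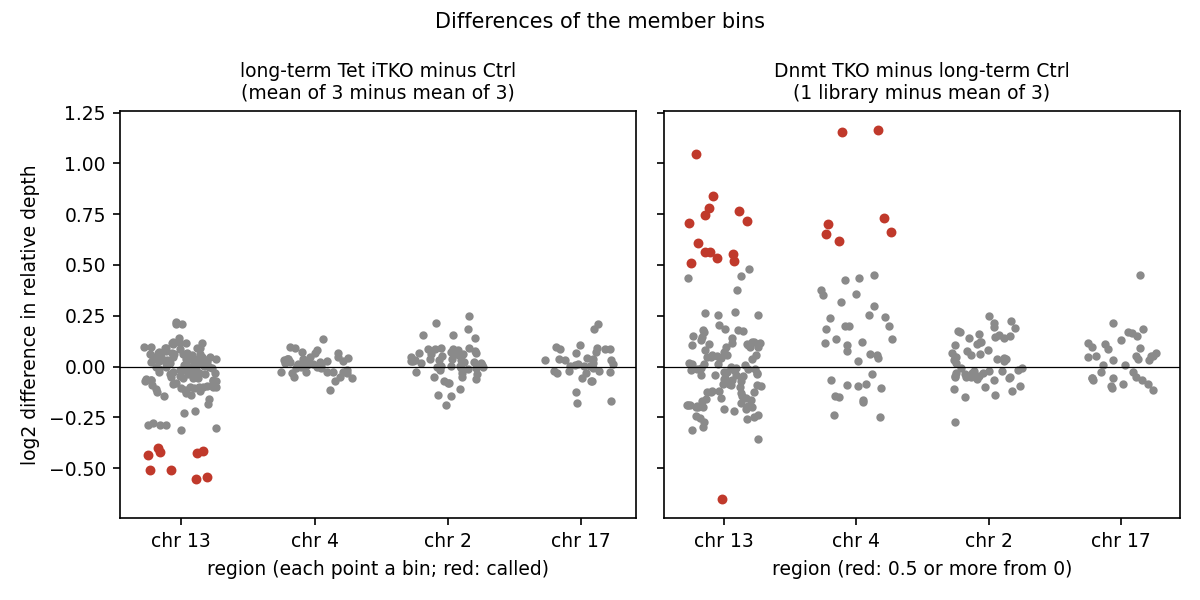
Log2 difference in relative depth of each of the 256 member bins, by region (chr 13, 4, 2 and 17), with points spread sideways for legibility. Left, long-term Tet iTKO minus long-term Ctrl (means of 3 libraries each), with the 9 called bins in red, all on chromosome 13 and between -0.55 and -0.40. Right, the Dnmt TKO library minus mean long-term Ctrl, with the 22 bins at 0.5 or more from 0 in red.

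The remaining comparisons had 1 library on at least 1 side and were described without a test. A bin was counted as different when its log2 relative depth differed by at least 0.5 in either direction. Over all autosomal bins the robust SD of these differences was between 0.106 and 0.136, so the limit stood well outside the bulk of bins.

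Before treatment, 0 of the 256 member bins differed by the limit between Tet iTKO and Ctrl, and 0.0522% of all autosomal bins did. After acute treatment the count was again 0, with 0.0709% of all autosomal bins. From pre-treatment to acute, 0 member bins differed in Ctrl (0.00835% of all autosomal bins) and 0 in Tet iTKO (0.0271%). In the early cells no bin of the 4 regions differed by this much, with 1 library per group. With shares this low over all autosomal bins, counts of 0 among 256 bins do not set these regions apart.

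Between pre-treatment and the mean of the long-term libraries, 0 member bins passed the limit in Ctrl, against 0.0584% of all autosomal bins. In Tet iTKO 3 bins were lower, against 0.0104% of all autosomal bins lower and 0.0146% past the limit in either direction. All 3 lay in the run. The bin of Gm45965 differed by -0.57, that of Gm17353 by -0.51 and the bin starting at 66304416 by -0.61, and the same bins differed by 0.23, -0.052 and 0.023 in Ctrl. These 3 bins share the long-term Tet iTKO libraries with the comparison above. As given earlier, stage and line cannot be told apart here, Y depth being below 0.04 in the early and above 0.4 in the long-term libraries.

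In the Dnmt TKO library the chromosome 13 stretch was higher, by a median of 0.26 on the log2 scale over its 30 bins. Over the other 90 bins of that region the median was -0.039, and over all 120 it was -0.0045. Against mean long-term Ctrl, 21 member bins were higher by the limit and 1 lower, where 2.4% of all autosomal bins were higher and 0.876% lower. Many of the higher bins elsewhere lie on chromosome 8, and without that chromosome, a choice made after seeing the data, 0.603% of autosomal bins were higher. The 21 comprised 14 bins on chromosome 13 and 7 on chromosome 4, with 0 on chromosomes 2 and 17. With 1 library and a line made separately, the knockout and the line cannot be told apart.

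On chromosome 13 the bin of 2410141K09Rik again stood out, with a relative depth of 2.69 (95% Poisson interval 2.48 to 2.91) against 1.30 ± 0.0411 (SD, n = 3) in long-term Ctrl, a difference of 1.05. The bin of Zfp640 (chr13:66654325-66704311) was at 2.33 (2.14 to 2.54) against 1.30 ± 0.0147 (SD, n = 3), and the bin before it, starting at 66604338, at 2.16 (1.98 to 2.36) against 1.26 ± 0.0319 (SD, n = 3). These intervals cover counting error only, and they would be wider if reads were longer than 50 bases. The highest of the 10 Ctrl and Tet iTKO libraries in the Zfp640 bin was 1.40, well under the Dnmt TKO value.

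The 14 higher bins of chromosome 13 had Dnmt TKO depths between 1.69 and 2.69 and long-term Ctrl means between 1.17 and 1.30. Their multi-copy shares were all high, from 71.3 to 89.3%. A zinc finger gene was overlapped by 8 of the 14 and by 45 of the 120 bins of the region. Of the 37 bins of the region with a multi-copy share over 50%, 14 were higher, and of the 83 others 0. The stretch held 12 of the 14, 6 of them in the run and 6 outside it, and the other 2, starting at 65354663 and 65454637, lay just before it.

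The higher depth of Dnmt TKO was uneven along the stretch. Bins at 1.5 or more alternated with bins at the Ctrl level, such as that starting at 66054481, which was at 0.958 (0.834 to 1.09) in Dnmt TKO and 1.07 ± 0.0060 (SD, n = 3) in long-term Ctrl. Averaged over the run, Dnmt TKO stood at 1.57, 1.31 times the long-term Ctrl mean. Of the 14 higher bins 3 were among the 9 bins called lower in long-term Tet iTKO, those of LOC115488129 and 2410141K09Rik and that starting at 66454377. Both comparisons share the long-term Ctrl libraries.

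The 1 lower bin, chr13:67354144-67404130, was named after its value was seen. It overlaps the KRAB zinc finger genes Zfp456, Zfp429 and Zfp953. Its relative depth was 0.755 (0.646 to 0.876) in Dnmt TKO and between 1.15 and 1.36 in the other 10 libraries, a difference of -0.65 from long-term Ctrl. Rsl1, in a neighbouring part of the region, stood at 0.987 in Dnmt TKO against 1.23 ± 0.0936 (SD, n = 3) in long-term Ctrl.

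On chromosome 4 the Dnmt TKO library was higher by a median of 0.16 on the log2 scale over the 44 bins, against -0.0023 over all autosomal bins. The largest differences were at the start of the region. The bin of Gm13212, a KRAB zinc finger gene with 20 fingers (chr4:145548512-145598720), was at 4.54 (4.27 to 4.82) against 2.02 ± 0.0989 (SD, n = 3) in long-term Ctrl. The first bin of the region, with Gm42346, was at 4.73 (4.45 to 5.02) against 2.12 ± 0.144 (SD, n = 3). The bin starting at 146049976, which holds only the start of Zfp987, was at 4.16 (3.89 to 4.43) against 2.50 ± 0.0750 (SD, n = 3). In these 3 bins the 10 Ctrl and Tet iTKO libraries stayed between 1.91 and 2.72. Averaged over the genes, Dnmt TKO and the long-term Ctrl mean were 3.44 and 2.15 for Gm13212 and 4.60 and 2.10 for Gm42346. For Zfp987 they were 2.01 and 1.88, so the large difference of its bin was not seen over the gene.

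In the chromosome 4 region 37 of the 44 bins overlapped a zinc finger gene, as did all 7 higher bins. The 7 included the last bin of Rex2, at 3.38 (3.15 to 3.63) against 2.20 ± 0.147 (SD, n = 3). Their multi-copy shares ranged from 23.5 to 83.4%, and 5 of the 7 were at 50% or less. Most of the higher bins of chromosome 4 were thus less repeated than those of chromosome 13. The deepest bin of the region was not among them, with a difference of 0.20.

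The chromosome 2 and 17 regions of the Dnmt TKO library stayed near long-term Ctrl. Differences ranged from -0.27 to 0.25 on chromosome 2, with a median of 0.031, although most of this region is multi-copy. On chromosome 17 they ranged from -0.11 to 0.45, with a median of 0.043.

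For comparison, 24 of the 790 zinc finger gene bins elsewhere (3.04%) were higher in Dnmt TKO and 13 (1.65%) lower. Over all autosomal bins the shares were 2.4% and 0.876%. Chromosome 8 was not left out of these counts, and none of the 4 regions lies on it. Of the 568 Olfr bins 1 was higher (0.176%) and 3 lower (0.528%), and of the 327 Vmn bins 22 were higher (6.73%) and 56 lower (17.1%). Within the 4 regions 15 of the 126 bins with a zinc finger gene (11.9%) and 6 of the 130 without (4.62%) were higher.

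**Figure D4:**
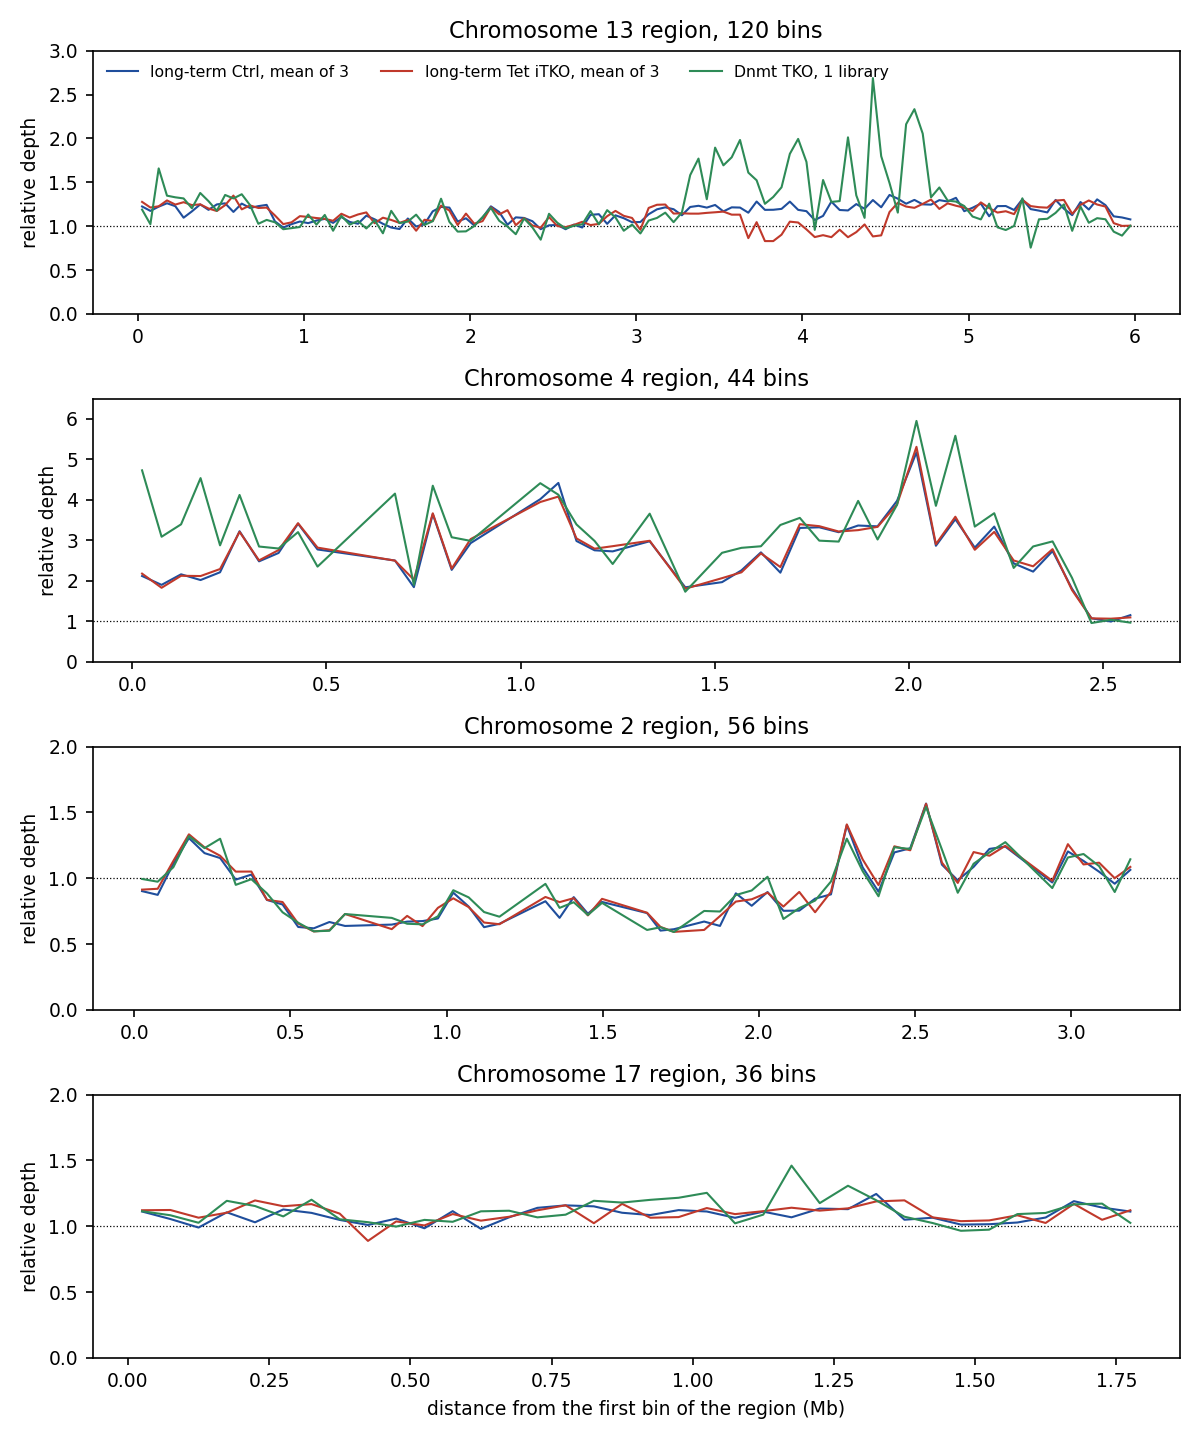
Relative depth along the 4 regions against distance from the first bin in Mb, for mean long-term Ctrl (blue, n = 3), mean long-term Tet iTKO (red, n = 3) and the Dnmt TKO library (green); the dotted line marks 1 and the y ranges differ. Dnmt TKO reaches 2.69 on chromosome 13 and 5.95 on chromosome 4, and the 3 lines run close together on chromosomes 2 and 17.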

How the data were processed

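Genomic DNA was sequenced from PCR-free libraries, 1 per sample. The authors deposited, per library, the mean depth signal (coverage) of bins of about 50 kb on mm10 and its log2 value, with no GC correction in these values. The study's methods name BWA-mem and Picard, and the submitters' processing notes Picard and BSMAP 2.74v. Low bins of the early libraries held multiples of 50 bases (93.8 to 95.4% of bins holding few bases), so reads were counted as bases over 50. Each long-term library had only 1 to 4 such bins, and the methods speak of longer reads, so the read length is unsettled, and read counts, Poisson ratios and counting intervals depend on it.

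Relative depth was depth over the library's median autosomal bin, and tests used log2(relative depth + 0.01) over the 47924 autosomal bins, all above the filter (mean relative depth of 0.25). A linear model per bin, checked on simulated data, came from limma 3.58.1 under R 4.3.3 (moderated by eBayes, p adjusted by Benjamini-Hochberg), and regions with exact permutation over libraries. Fingers (C-x2-C-x12-H-x3 to 5-H) were matched in translated RefSeq coding sequences, as no protein table was used. Multi-copy shares used 1 in 64 windows, chosen by hash.

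Named were, per region, up to 5 called bins and up to 3 bins per comparison with 1 library, every called bin of the stretch, genes overlapping them and Rsl1, Rslcan18, Zfp708, Zfp600, Rex2 and Zfp534. Members and lists were chosen with earlier results of these data known.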

Additional observations from a re-analysis of the deposited data

Results flagged for a closer look

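In the chromosome 13 stretch, every long-term Ctrl library lay above the pre-treatment Ctrl library and every long-term Tet iTKO library below that of Tet iTKO. Mean log2 relative depth over the 30 bins differed from pre-treatment by 0.030 to 0.052 in the long-term Ctrl libraries and by -0.23 in all 3 long-term Tet iTKO libraries (-0.233 to -0.227). These differences were -0.27 apart between the 2 genotypes (Tet iTKO minus Ctrl). With 1 pre-treatment library per genotype, this difference was not tested. The 3 long-term libraries of a genotype share that library, so their common direction is not 3 separate observations. The stretch was already known to differ, and culture stage and cell line cannot be told apart here. No group had the 4 libraries needed to look for single libraries standing apart.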

How the results depend on the processing

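Of 268 recomputed values, 263 were classed as keeping direction and side of the threshold, a label under which counts could change in size. Many were counts of 0 that stayed 0, or differences of bins picked because they were called. The tally is therefore no measure of how firm the results are. The 9 bins called lower in long-term Tet iTKO stayed 8 to 11 under every alternative, with all 9 among them except without Ctrl long-term replicate 2, where the bin starting at 66304416 was lost (-0.35) and 8 were called. Leaving out each long-term library in turn gave 8 to 10 bins lower and 0 higher. Over all autosomal bins, 50 were called lower, against 33 without Ctrl long-term replicate 2 and 95 without Tet iTKO long-term replicate 3. With the replicate block 10 member bins were called. The numbers did not pair the libraries, with correlations of same-numbered deviations from -0.0051 to 0.0019, and the blocked mean of same-number differences was -0.052 on chromosome 13 (exact sign-flip p = 0.25, the smallest that 3 pairs allow).

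Counts past the fold limit moved with the limit. At 0.7 the Dnmt TKO library had 10 member bins higher and 0 lower, and long-term Tet iTKO had 0 lower than pre-treatment, while at 0.4 it had 9. The region differences kept their sign under all settings, GC correction included. They ranged from -0.058 to -0.049 on chromosome 13, 0.0047 to 0.021 on chromosome 4, 0.012 to 0.042 on chromosome 2 and 0.0064 to 0.021 on chromosome 17 when a library was left out. With a median bin of under 316 reads, smaller differences of single bins could not be resolved, and reads of near-identical copies cannot be assigned to 1 gene.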

Other observations

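The spread among replicate libraries was lower on chromosome 4 than elsewhere and slightly higher on chromosomes 2 and 17, differences that were not tested. Median relative depth, and with it the reads per bin, was also highest on chromosome 4 and lowest on chromosome 2. As given earlier, replicate libraries differed by no more than counting noise, and the share of that noise in the spread of each region was not tested. The median SD of log2 relative depth over the 3 long-term Ctrl libraries was 0.057 per bin on chromosome 4, 0.068 on chromosome 13, 0.079 on chromosome 17 and 0.081 on chromosome 2, against 0.075 in autosomal bins outside the 4 regions. In the same order the values in long-term Tet iTKO were 0.045, 0.074, 0.083 and 0.083, against 0.077.

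The zinc finger genes of the 4 regions differed in how much coding sequence they share. A median of 100% of the coding 50-base windows of the 26 zinc finger genes of chromosome 2 had another exact copy in the region. The median was 79.1% for the 19 genes of chromosome 4, 34.9% for the 47 of chromosome 13 and 0% for the 13 of chromosome 17, whose maximum was 60.1%.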
